A study of Homo sapiens with 27 samples.

Results

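The effect of the siRNA against VPS37C on the transcriptome of DLD1 cells, a human colorectal carcinoma line, was measured over every siRNA combination that included it. The 12 libraries from cells given this siRNA were set against 12 without it, which is 24 of the 27 libraries of the series. The 3 libraries of untransfected cells (NT) were left out. The cells with the VPS37C siRNA were siVPS37C, siVPS37AC, siVPS37BC and siVPS37ABC, and their counterparts without it were siCTRL, siVPS37A, siVPS37B and siVPS37AB, with 3 replicates in each of the 8 groups. In each such pair the other paralogs were targeted alike, so that the VPS37C siRNA was added to control cells, to cells depleted of VPS37A, to cells depleted of VPS37B and to cells depleted of both. These 4 settings, which share no library, are called backgrounds here. All cells were transfected, with 1 siRNA sequence for each targeted paralog, and were collected 72 h later. RNA was read as amplicons of an Ion AmpliSeq panel for human genes.

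The group names come from the labels. Which control siRNAs make up siCTRL, which of them accompanied the single and pair knockdowns, and how much siRNA each group received in all are not given in the sources used here. Because VPS37C was targeted by 1 siRNA sequence, loss of VPS37C and effects of that sequence on other transcripts cannot be told apart. The replicate number is also the batch number in the labels, and nothing else says that replicates were separate cultures.

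VPS37C is one of the alternative VPS37 subunits (VPS37A to VPS37D) of ESCRT-I, the complex that recruits ubiquitinated membrane proteins on endosomes and, through the later ESCRT complexes, helps to pack them into vesicles that reach the lysosome. ESCRT-I also holds TSG101, VPS28 and a subunit of the MVB12 or UBAP1 type, and its parts are known to stabilize each other at the protein level. The same machinery acts in membrane repair, virus budding and the last step of cell division. RNA levels, as measured here, do not show the protein level of any subunit.

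Values are transcripts in each 1000000 (TPM). They were compared as log2(TPM + 1), a scale on which the change of a gene with few TPM comes out too small. The VPS37C term is the log2 difference between libraries with and without the VPS37C siRNA in 1 limma model that also holds terms for the VPS37A siRNA, the VPS37B siRNA and the replicate number. It was fitted to the 6458 genes that averaged 10 TPM or more over all libraries, and a gene is called when its Benjamini-Hochberg adjusted p from this model is under 0.05. All adjusted p values below come from limma, and ± after a log2 value is the standard error (SE). The depth of the libraries is unknown. Library descriptions end in a number that differs in part between the groups compared. The 2 libraries of a same-numbered pair had the same library number in 3 of the 12 pairs, so values with a term for it are given beside results whose calls it changed. In the other 9 pairs the library number and the siRNA cannot be told apart.

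VPS37C was lower in every library that received its siRNA. In cells with the VPS37C siRNA its level lay between 3.11 and 5.56 TPM with a median of 4.22 TPM, against 11.3 to 27.7 TPM with a median of 20.5 TPM in cells without it. The 2 sets did not overlap, and the highest level with the siRNA was below the lowest without it. Measured against its own background, VPS37C stood at 21.6% of siCTRL in siVPS37C, at 21.8% of siVPS37A in siVPS37AC, at 24.3% of siVPS37B in siVPS37BC and at 16.8% of siVPS37AB in siVPS37ABC. The term was -1.99 ± 0.10 (adjusted p = 1.49e-14). The widest spread within a group was in siVPS37A, with 16.2, 11.3 and 27.7 TPM in its 3 replicates. Since bulk RNA was measured, a smaller share of cells with the transcript and less of it in each cell cannot be told apart.

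The other 2 targeted paralogs were followed in the same libraries. VPS37A averaged 5.03 ± 0.85 TPM in siVPS37C and 5.80 ± 0.93 TPM in siCTRL (SD, n = 3 each), too low for the main test. Fitted without the filter, its VPS37C term was -0.06 ± 0.08 (adjusted p = 0.632). VPS37B rose by 0.31 ± 0.09 (adjusted p = 0.0160), and was higher in 10 of 12 pairs. Its level was 42.5, 41.4 and 60.9 TPM in siVPS37C, against 40.1, 45.9 and 53.2 TPM in siCTRL, which overlap. In cells also depleted of VPS37A it was 58.8, 79.0 and 54.7 TPM in siVPS37AC, against 45.0, 53.5 and 51.6 TPM in siVPS37A. These 2 groups did not overlap. The call for VPS37B was lost with a pseudocount of 8, with quantile normalization, with a term for library number (0.36, adjusted p = 0.189) and without either background in which VPS37B was also targeted.

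**Figure D1:**
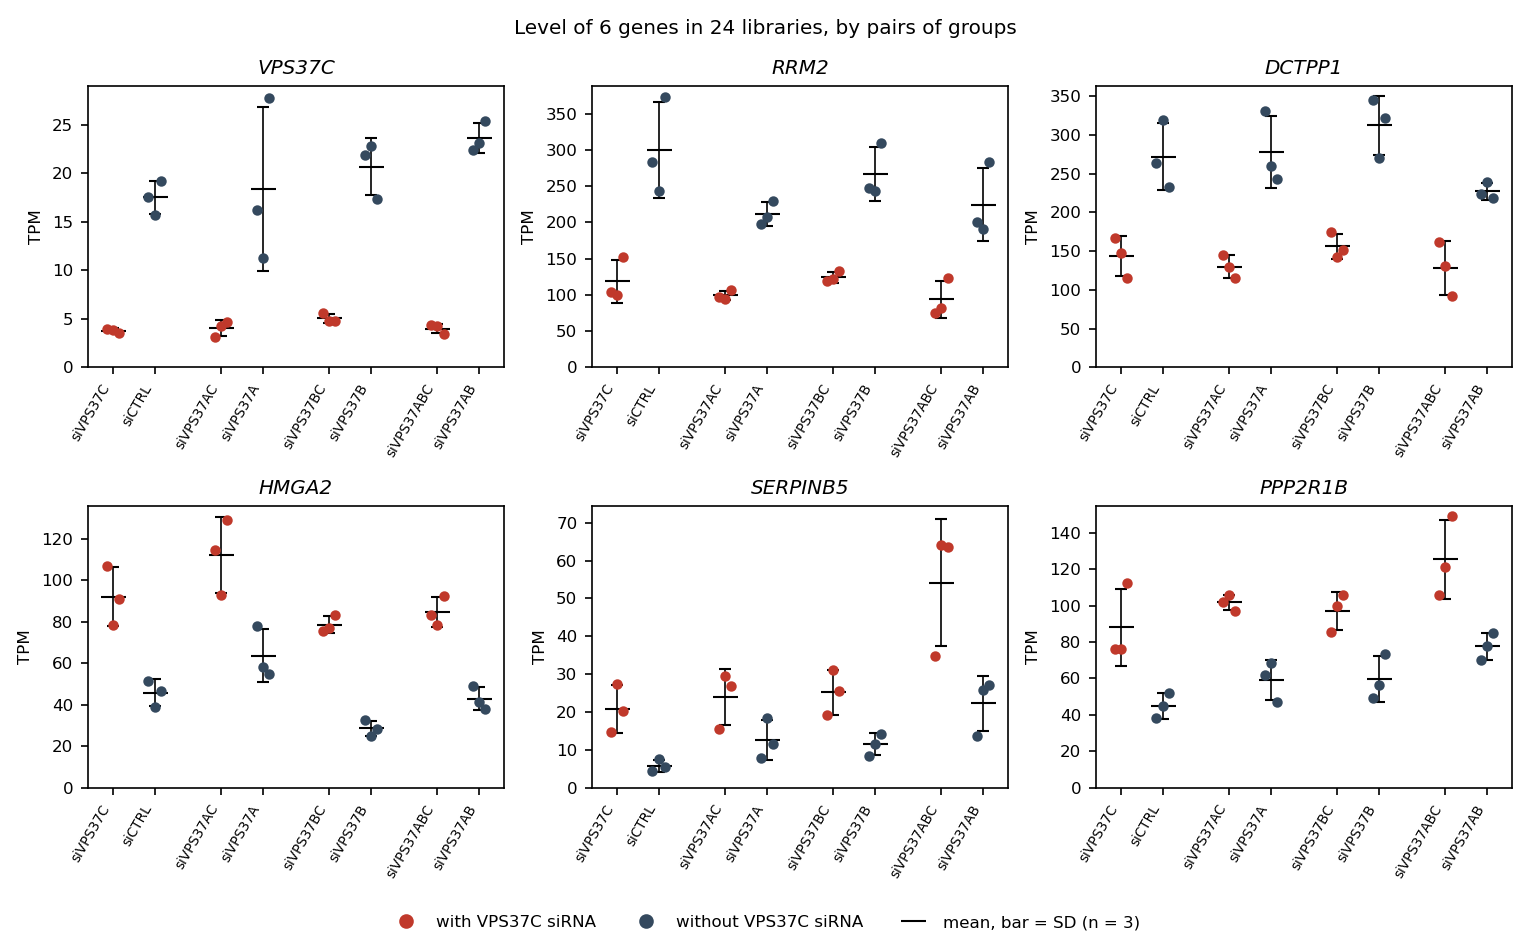
Level in TPM (linear axes from 0) of 6 genes in the 24 libraries, grouped by background with the VPS37C siRNA group left of its counterpart; points are replicates, bars the mean and SD of 3. VPS37C, RRM2 and DCTPP1 sat lower in every group with the VPS37C siRNA, and HMGA2, SERPINB5 and PPP2R1B sat higher, whichever other paralogs were targeted.

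Across all genes tested, 584 were higher (9.04%) and 606 lower (9.38%) in cells with the VPS37C siRNA, 1190 of 6458 in all (18.4%). Most of these differences were small. More than 1.5-fold higher were 16 genes and more than 1.5-fold lower were 44. The 4 genes that rose by more than 2-fold were SERPINB5, HMGA2, ALPP and PRR9, and the 4 that fell by more than 2-fold were VPS37C, NRARP, RRM2 and ZDHHC9. Of the called genes, 1051 had the same sign in all 4 backgrounds and 306 in all 12 pairs of libraries with the same replicate number. The 12 libraries with the siRNA lay entirely above the 12 without it for 1 gene (0.0155% of those tested) and entirely below for 21 genes (0.325%). With a term for library number, which leaves 12 residual degrees of freedom in place of 18, 462 genes were called, 190 higher and 272 lower.

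The largest falls were in genes of varied function. The 12 that fell most, among called genes averaging 20 TPM or more whose sign was shared by all backgrounds, were RRM2, DCTPP1, PMVK, AAGAB, RAC3, NR2F6, EPDR1, RNF103, ARL6IP6, PSMB9, USP22 and SMARCD2. Each was lower in all 12 pairs. For 8 of these genes (RRM2, DCTPP1, AAGAB, NR2F6, EPDR1, ARL6IP6, USP22 and SMARCD2) no library with the siRNA reached the level of any library without it.

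RRM2 encodes the small subunit of ribonucleotide reductase, which makes deoxyribonucleotides for DNA synthesis. Its level was 75.5 to 153 TPM (median 105) in the 12 libraries with the VPS37C siRNA, against 191 to 373 TPM (median 243) in the 12 without. The fall was of like size in every background, to 39.5% of siCTRL in siVPS37C, 47.0% of siVPS37A in siVPS37AC, 46.5% of siVPS37B in siVPS37BC and 41.7% of siVPS37AB in siVPS37ABC. Its term was -1.19 ± 0.06 (adjusted p = 1.49e-14), with the same p as the targeted gene and a smaller SE. DCTPP1, a pyrophosphatase that removes dCTP and modified cytosine nucleotides, was at 92.1 to 174 TPM (median 144) with the siRNA and at 218 to 345 TPM (median 262) without it. Its term was -0.96 ± 0.07 (adjusted p = 1.84e-10).

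PMVK, a kinase of the mevalonate pathway that leads to cholesterol, stood at 11.3 to 26.3 TPM with the siRNA and at 25.6 to 55.1 TPM without it, ranges that overlapped slightly. Its term was -0.95 ± 0.09 (adjusted p = 2.93e-08). AAGAB, a chaperone for the assembly of clathrin adaptor complexes, was at 22.0 to 40.2 TPM (median 27.9) with the siRNA, against 42.3 to 65.5 TPM (median 57.0) without. The term of AAGAB was -0.94 ± 0.07 (adjusted p = 9.10e-11). RAC3 is a small GTPase that acts on the actin cytoskeleton. Its level was 18.5 to 35.6 TPM (median 23.7) with the siRNA and 27.2 to 77.4 TPM (median 43.3) without it, with a term of -0.91 ± 0.10. In the VPS37B background RAC3 differed by -1.46 and in the other 3 by -0.82 to -0.67.

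NR2F6, an orphan nuclear receptor, had 14.1 to 25.7 TPM (median 21.6) with the VPS37C siRNA and 29.6 to 52.8 TPM (median 38.9) without it, and a term of -0.89 ± 0.09. USP22, the ubiquitin protease of the SAGA coactivator complex, was at 34.2 to 52.7 TPM (median 45.3) with the siRNA, against 65.5 to 87.2 TPM (median 75.0) without. For USP22 the 4 backgrounds lay between -0.83 and -0.70 around a term of -0.76 ± 0.06 (adjusted p = 2.58e-10). SMARCD2, a subunit of SWI/SNF chromatin remodelling complexes, fell by 0.74 ± 0.07, and its levels were 55.7 to 84.8 TPM with the siRNA and 90.0 to 146 TPM without it. RNF103, a ubiquitin ligase of the endoplasmic reticulum, fell by 0.83 ± 0.08. PSMB9, a catalytic subunit of the immunoproteasome, fell by 0.77 ± 0.10. Falls of 0.84 ± 0.07 and 0.78 ± 0.07 were found for EPDR1 and ARL6IP6.

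Rises were fewer among the large changes and overlapped more. The 12 largest by the same rule were SERPINB5, HMGA2, RCC2, PPP2R1B, KRTAP2-3, IL1RN, RBPJ, MEST, WDR1, RPL34, IL33 and SLC16A3. Of these, 8 were higher in all 12 pairs, while IL33, RBPJ and RPL34 were higher in 11 and SLC16A3 in 10. RCC2 was the one gene whose 12 libraries with the siRNA all lay above the 12 without.

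SERPINB5 encodes maspin, a serpin of epithelial cells. It was at 14.6 to 64.2 TPM (median 27.1) in libraries with the VPS37C siRNA and at 4.34 to 27.1 TPM (median 11.6) in those without. Within every background the rise was seen at each replicate number: 14.6, 27.3 and 20.2 TPM in siVPS37C against 4.34, 7.49 and 5.55 TPM in siCTRL, and 34.8, 64.2 and 63.6 TPM in siVPS37ABC against 13.7, 25.9 and 27.1 TPM in siVPS37AB. SERPINB5 overlapped in the pooled comparison because siVPS37AB was itself higher than siCTRL. The term was 1.22 ± 0.09 (adjusted p = 1.84e-10).

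HMGA2, a chromatin protein that binds AT-rich DNA, stood at 75.7 to 129 TPM (median 87.2) with the siRNA and at 25.2 to 78.2 TPM (median 44.2) without it. It rose by 1.05 ± 0.07 (adjusted p = 5.25e-11), with 0.81 in the VPS37A background at the low end and 1.43 in the VPS37B background at the high end. Only 1 library without the siRNA, siVPS37A replicate 1 at 78.2 TPM, was above the lowest library with it. RCC2, which binds chromatin and small GTPases and acts in mitosis, had 193 to 330.2 TPM (median 228) with the siRNA, against 72.8 to 191 TPM (median 145) without it. Its rise was 0.82 ± 0.09 (adjusted p = 1.48e-07). PPP2R1B, a scaffold subunit of protein phosphatase 2A, was at 76.0 to 149 TPM (median 104) with the siRNA and at 38.1 to 84.9 TPM (median 59.0) without it, a rise of 0.78 ± 0.07.

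MEST, an imprinted gene of the alpha/beta hydrolase family, was at 28.9 to 49.3 TPM (median 41.2) with the siRNA and at 18.2 to 32.0 TPM (median 25.3) without it, and rose by 0.67 ± 0.07. WDR1, which helps cofilin to take actin filaments apart, rose by 0.59 ± 0.07. RBPJ, the DNA-binding protein of the Notch pathway, rose by 0.69 ± 0.13. NRARP, which Notch induces and which restrains it, moved the other way: it was at 6.24 to 12.9 TPM with the siRNA and at 17.0 to 34.5 TPM without it, with a term of -1.24 ± 0.09 (adjusted p = 5.25e-11). NRARP lay under the mean asked for by the naming rule and was chosen after its values were seen, as were ALPP, PRR9 and ZDHHC9 among the genes beyond 2-fold. Both IL1RN, the antagonist of the interleukin 1 receptor, and IL33, a cytokine of the same family, rose, by 0.75 ± 0.12 and 0.58 ± 0.08. SLC16A3, a lactate exporter, rose by 0.58 ± 0.11. KRTAP2-3 and ALPP have near-identical copies and RPL34 has processed copies in the genome, so their reads may be shared and their values (0.77 ± 0.18, 1.09 ± 0.11 and 0.59 ± 0.12) are uncertain.

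All 24 of these largest rises and falls were also called with a term for library number and under every other setting tried. In the 3 pairs with equal library numbers all 24 had the sign of their term. These pairs were part of the fits from which the 24 genes were chosen, so their signs are no separate check.

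**Figure D2:**
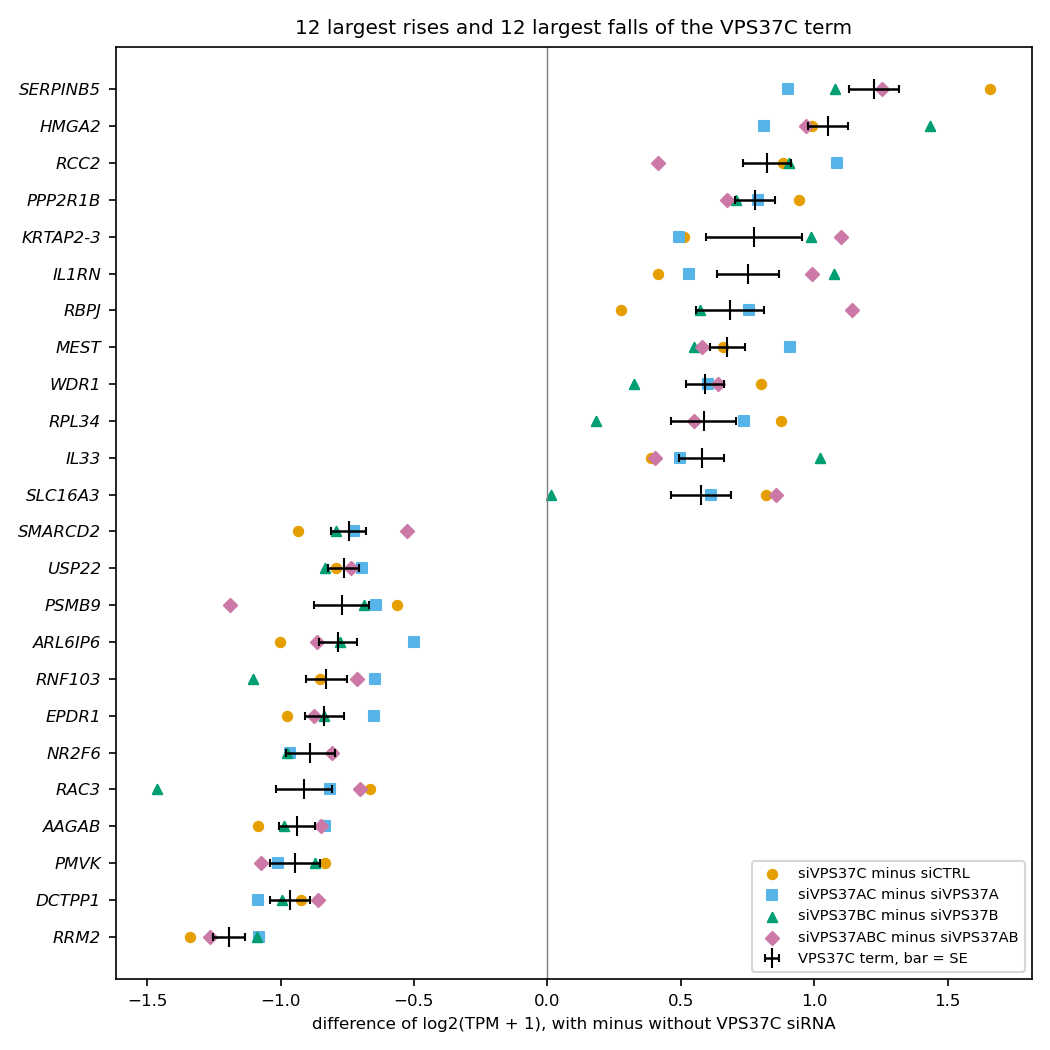
Differences of log2(TPM + 1), with minus without the VPS37C siRNA, for the 12 largest rises and 12 largest falls; coloured symbols are the 4 backgrounds and black marks the VPS37C term with its SE. For RRM2 the 4 symbols lie at or below -1, and for SLC16A3 the VPS37B background lies near 0.

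Each background taken alone gave fewer calls, with a median SE of 0.14 in place of 0.07. siVPS37C differed from siCTRL in 152 genes (2.35% of those tested), with 65 higher (1.01%) and 87 lower (1.35%). siVPS37AC differed from siVPS37A in 172 genes (2.66%), with 90 higher (1.39%) and 82 lower (1.27%). siVPS37ABC differed from siVPS37AB in 246 genes (3.81%), with 95 higher (1.47%) and 151 lower (2.34%). The largest number was in siVPS37BC against siVPS37B, with 801 genes (12.4%), of which 484 were higher (7.49%) and 317 lower (4.91%). Without that background the VPS37C term still called 659 genes, against 903 to 1284 when any other background was left out.

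Genes called in all 4 separate backgrounds numbered 36, of which 8 were higher (0.124% of those tested) and 28 lower (0.434%). Their smallest difference in any background was 0.32 on the log2 scale. The 8 higher genes were SERPINB5, HMGA2, PPP2R1B, MEST, WDR1, ALPP, EPB41L2 and CYBRD1. EPB41L2 joins the membrane to the spectrin and actin skeleton, and CYBRD1 reduces iron at the plasma membrane. They rose by 0.59 ± 0.07 and 0.51 ± 0.06. Beside VPS37C and 11 of the 12 largest falls (all but PSMB9), the lower genes included CLCC1 (-0.86 ± 0.06), an ion channel of the endoplasmic reticulum, RAB4B (-0.98 ± 0.10), a small GTPase of recycling endosomes, and XPOT (-0.66 ± 0.07), the nuclear exporter of tRNA. They also included IDH2 (-0.68 ± 0.08), which makes NADPH in mitochondria, GUK1 (-0.66 ± 0.07), which phosphorylates GMP, COQ7 (-0.70 ± 0.07), an enzyme of ubiquinone synthesis, and PDCD4 (-0.64 ± 0.07), an inhibitor of translation initiation. Genes named in this paragraph beyond the largest rises and falls were chosen after their values were seen.

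Transcripts that share short words with VPS37C are shown next, because an siRNA can lower other transcripts that match its seed, usually in the 3′ UTR. The sequence of the VPS37C siRNA is not in the sources used here, so no seed could be matched. In its place, all 15286 words of 7 bases found in the 3′ UTRs of at least 50 tested genes were ranked by the mean VPS37C term of the genes holding them, after the trend with UTR length and GC content was removed and with the mean scaled by the square root of the number of genes. The ranking used 6268 of the 6458 genes (97.1%), whose UTRs were taken from GENCODE 29 on GRCh38. Only the sense strand of the transcript was searched, and the ranking is a description without a test. The lowest word was AGGCGAT and the next GGCGATT, which overlap by 6 bases and together read AGGCGATT. At rank 3 from the lowest was TGGCGAT, held by 69 genes, with a mean of -0.13 after removal of the trend. TGGCGAT also had rank 3 in each of the 4 backgrounds. It holds the same 6 bases, GGCGAT, but has T where AGGCGATT has A. What these low words share is therefore GGCGAT and not the whole of AGGCGATT. The coding sequence of VPS37C itself holds AGGCGATT, starting at its base 59. For other genes only the 3′ UTR was searched, so how often coding sequences hold these bases is not known here. Windows from GRCh38 follow, 5′ to 3′ on the transcript strand, with the matching bases in capitals. They are for VPS37C and for 5 of the genes that were lower in all 4 backgrounds and hold AGGCGAT or GGCGATT in the 3′ UTR. ZDHHC9 and XPOT hold the whole of AGGCGATT, RRM2 and AAGAB only AGGCGAT, and UBE2Z only GGCGATT.
VPS37C, coding, chr11:61138754-61138781, minus strand: aatgactcggAGGCGATTgaccagctgg
ZDHHC9, 3′ UTR, chrX:129804945-129804972, minus strand: atctatttgaAGGCGATTaaactgtgtc
XPOT, 3′ UTR, chr12:64448178-64448205, plus strand: atttataaagAGGCGATTtttgtgtgcc
RRM2, 3′ UTR, chr2:10129790-10129816, plus strand: tgtactcacaAGGCGATaatagcttga
AAGAB, 3′ UTR, chr15:67201866-67201892, minus strand: gtgaaatgttAGGCGATgaattcctga
UBE2Z, 3′ UTR, chr17:48928451-48928477, plus strand: agtgggtattGGCGATTcttgtgatgc

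Outside the capitals these windows differ from the VPS37C window. ZDHHC9, a palmitoyltransferase, holds the full 8 bases and was at 7.07 to 14.6 TPM with the VPS37C siRNA and at 14.9 to 36.9 TPM without it, with a term of -1.03 ± 0.08. UBE2Z, a ubiquitin-conjugating enzyme, was at 42.6 to 71.9 TPM with the siRNA, against 73.0 to 108 TPM without, and fell by 0.61 ± 0.06. Of the 28 genes lower in all 4 backgrounds, 8 (28.6%) hold AGGCGAT or GGCGATT in the 3′ UTR, namely the 5 shown with USP22, CCDC3 and PGAP3. None of the 8 genes higher in all 4 does. The share is 6.37% of the 581 genes lower in the VPS37C term, 0.697% of the 574 higher and 1.99% of all 6268. Because the words were picked for the low VPS37C terms of their carriers, larger shares among lower genes follow from that choice and are no separate evidence.

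The word AGGCGAT alone was found in 84 genes (1.34%). Of these, 54 had a VPS37C term below 0, and 21 were called lower and 3 higher, beside 581 and 574 of all 6268 genes ranked. The mean term of the 84 genes after removal of the UTR trend was -0.15. It ranked lowest of all words in siVPS37AC against siVPS37A, in siVPS37BC against siVPS37B and in siVPS37ABC against siVPS37AB, and second lowest after GGCGATT in siVPS37C against siCTRL. Counted from the lowest, it was at rank 4295 in the VPS37A term and at rank 11663 in the VPS37B term. Carriers of the full AGGCGATT numbered 18, of which 6 were called lower and 0 higher. HBEGF was among those 6, and the ESCRT-I gene VPS28 was among the called carriers of AGGCGAT. The median VPS37C term was -0.06 for the 18 carriers of AGGCGATT. It was also -0.06 for the 66 carriers of AGGCGAT without AGGCGATT, and -0.13 for the 43 carriers of GGCGATT without AGGCGATT. The words were picked for these values, and whether the siRNA bound any of these transcripts was not tested.

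Sequences are given in the labels for 2 control siRNAs. The words matching their seeds (bases 2 to 8 of the antisense strand, in capitals) were looked up in the same ranking.
NC3: cUACGAUAgaccggucguatt
NC4: aCGUGACAcguucggagaatt
The site matching the NC3 seed is TATCGTA, which 70 genes hold, and that of NC4 is TGTCACG, which 134 hold. Their mean VPS37C terms after removal of the UTR trend were 0.02 and 0.04. Counted from the lowest of the 15286 words, the NC3 site was at rank 12976 and the NC4 site at rank 15199, near the upper end. Of the genes holding the NC4 site 19 were called higher and 8 lower, and of those holding the NC3 site 14 and 8. Among all 6268 genes ranked, 574 were called higher and 581 lower. In siVPS37C against siCTRL, siVPS37AC against siVPS37A and siVPS37BC against siVPS37B the NC4 site ranked at 14948, 15263 and 15208. In siVPS37ABC against siVPS37AB it ranked at 7455, with a mean of -1.54e-06 after removal of the UTR trend. The NC4 site was also near the upper end in the VPS37A term (rank 15012) and in the VPS37B term (rank 14262). The highest word in the VPS37C term, ATGTCAC, shares 6 bases with the NC4 site and was held by 451 genes, with a mean of 0.04. Which groups received these controls is not given in the sources used here, so these ranks cannot show what either seed did.

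**Figure D3:**
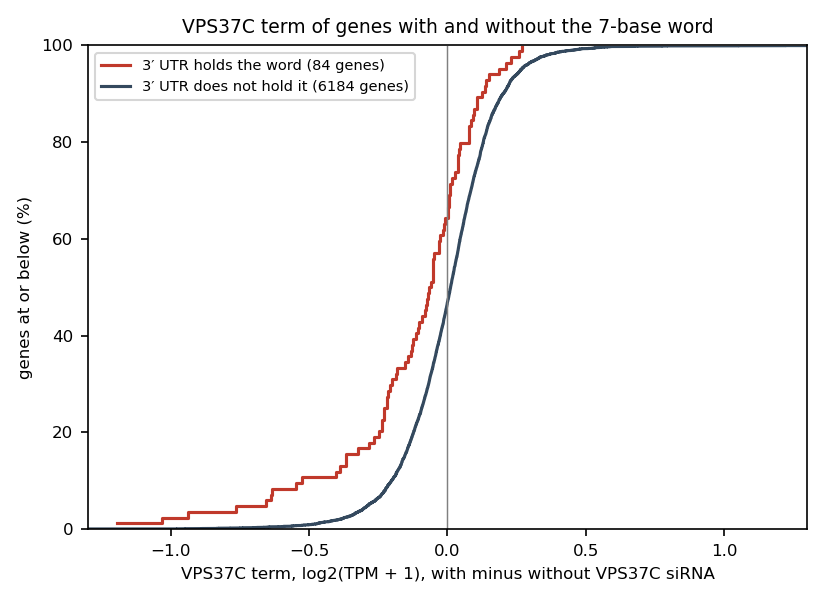
Cumulative share of genes (%) against the VPS37C term in log2(TPM + 1), for the 84 genes whose 3′ UTR holds AGGCGAT and the 6184 whose 3′ UTR does not. The line of the carriers lies to the left, with a median of -0.06 against 0.01, and its lower end is RRM2 at -1.19. The word was picked for the low VPS37C terms of its carriers, so a shift to the left follows from that choice.

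Among other ESCRT-I genes, VPS28, a core subunit, fell by 0.52 ± 0.08 (adjusted p = 4.79e-05) and was lower in all 12 pairs. Its level was 26.8 to 43.7 TPM (median 33.2) with the VPS37C siRNA, against 36.8 to 67.2 TPM (median 46.5) without it. TSG101, the subunit that binds ubiquitin, was at 91.2 to 131 TPM (median 105) with the siRNA and at 89.1 to 134 TPM (median 109) without it, with a term of -0.03 ± 0.05 (adjusted p = 0.784). UBAP1 had a term of -0.05 ± 0.10 (adjusted p = 0.786). Of 27 tested genes of the other ESCRT complexes and their partners, 1 was higher and 3 lower. The share of lower genes was near the 9.38% of all genes tested, and that of higher genes was below the 9.04%. PDCD6, also called ALG-2, a calcium sensor that recruits ESCRT, rose by 0.55 ± 0.07 (adjusted p = 4.24e-06). VPS25, a subunit of ESCRT-II, fell by 0.56 ± 0.09, CHMP2A, a subunit of ESCRT-III, by 0.32 ± 0.06, and TOM1, an adaptor for ubiquitinated cargo, by 0.32 ± 0.07. The call of TOM1 was lost with a term for library number (-0.20, adjusted p = 0.305).

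Of 28 genes of endosomal sorting 2 were higher and 3 lower, shares near the 9.04% and 9.38% of all genes tested. TFRC, the transferrin receptor, rose by 0.53 ± 0.09 (adjusted p = 7.40e-05), with 138 to 312 TPM (median 199) in cells with the siRNA and 81.7 to 187 TPM (median 131) in cells without. VPS39, a subunit of the HOPS tether of lysosomes, fell by 0.35 ± 0.08. VPS16, shared by the HOPS and CORVET tethers, fell by 0.38 ± 0.07 and CD63, a tetraspanin of late endosomes, by 0.32 ± 0.08, and both lost the call with a term for library number (adjusted p = 0.0573 and 0.385). Among 39 lysosome and autophagy genes 0 were higher and 3 lower, a share of lower genes near the 9.38% of all genes tested. The ATG8 relatives GABARAPL2 and GABARAP fell by 0.41 ± 0.06 and 0.26 ± 0.07, and neither was called with a term for library number (adjusted p = 0.0544 and 0.337). EGFR, a receptor that ESCRT sorts for degradation, rose by 0.36 ± 0.06 (adjusted p = 1.06e-04) and was higher in all 12 pairs.

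Cholesterol synthesis genes rose more than any other list in the share of members called. Of 27 tested, 12 were higher and 2 lower, beside 9.04% higher and 9.38% lower among all genes, and the median of the list was 0.18 against 0.01 for all genes. DHCR7, the last enzyme of the pathway, was at 270.1 to 405 TPM (median 343) with the VPS37C siRNA and at 187 to 347 TPM (median 282) without it. It rose by 0.37 ± 0.06 (adjusted p = 8.82e-05) and was higher in 12 of 12 pairs. ACAT2, which makes acetoacetyl-CoA, rose by 0.32 ± 0.07. Outside the naming rule, the members called higher included INSIG1, MSMO1, SQLE, IDI1, HMGCS1, ACLY, ACACA and FDPS, with terms between 0.16 and 0.55. With a term for library number ACLY, ACACA and FDPS were not called (adjusted p = 0.352, 0.209 and 0.194). The 2 lower members were PMVK, given above, and TM7SF2, a sterol reductase, at -0.45 ± 0.11. Median differences of the list were 0.16, 0.10, 0.19 and 0.27 in the control, VPS37A, VPS37B and VPS37A with VPS37B backgrounds. The counts held at 10 higher and 2 lower with a term for library number, 11 and 2 with quantile normalization, and 9 to 15 higher when any 1 background was left out.

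Of 42 tested replication-dependent histone genes, 0 were higher and 12 lower, beside 9.04% and 9.38% of all genes, and 40 had a term below 0, with a median of -0.20. HIST1H2BM was at 23.3 to 185 TPM (median 98.6) with the siRNA, against 56.3 to 332 TPM (median 125) without it, ranges that overlapped widely. It fell by 0.63 ± 0.12 (adjusted p = 3.36e-04). HIST1H4A fell by 0.40 ± 0.09, HIST1H4H by 0.34 ± 0.08 and HIST1H2AB by 0.33 ± 0.08. With a term for library number 16 were lower and the median was -0.32, though HIST1H4A was then not called (adjusted p = 0.147). The count was 7 lower without the control background or without the background of both other paralogs, 21 without the VPS37A background, 5 without the replicate number and 20 without siVPS37AC replicate 3. Histone genes of this kind are near-identical in sequence, so their single values are uncertain.

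Of 47 DNA replication and S phase genes 3 were higher and 5 lower, shares near the 9.04% and 9.38% of all genes tested. The median of the list was -0.01. The lower count was 3 or fewer without any one of siVPS37ABC replicates 1 and 3, siVPS37AC replicate 1, siVPS37B replicates 1, 2 and 3 and siVPS37C replicate 3. RFC1, a subunit of the clamp loader, rose by 0.26 ± 0.05, and GINS2, a subunit of the replicative helicase, fell by 0.22 ± 0.07, and neither held with a term for library number (adjusted p = 0.0818 and 0.0523). Mitosis genes were higher at 8 of 35 and lower at 0, beside the same 9.04% and 9.38% of all genes. The higher ones were led by the phosphatase CDC25B (0.31 ± 0.07), the checkpoint protein BUB3 (0.27 ± 0.08), the spindle midzone protein PRC1 (0.23 ± 0.07) and cyclin A2, CCNA2 (0.19 ± 0.06). Ribosome biogenesis genes were higher at 8 of 28 and lower at 0, beside the same shares of all genes. The higher ones were led by nucleolin, NCL (0.27 ± 0.06), and HEATR1 (0.41 ± 0.09), which acts in transcription of ribosomal RNA genes. Both lists rested on the model. With a term for library number, mitosis genes were 0 higher and 1 lower and ribosome biogenesis genes 0 higher and 0 lower, and without the VPS37B background they were 1 and 3 higher. The mitosis count was 5 without siVPS37BC replicate 2. The ribosome biogenesis count was 5 without any of siVPS37B replicates 1 and 2 and siVPS37BC replicates 1, 2 and 3. In the VPS37B background the median of ribosome biogenesis genes was 0.34, against -0.03 to 0.08 in the other backgrounds.

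Of 12 tested NF-kB targets and cytokines, 0 were higher and 2 lower in cells with the VPS37C siRNA. Among all genes tested 9.04% were higher and 9.38% lower. LCN2, a secreted siderophore-binding protein, fell by 0.70 ± 0.09 (adjusted p = 1.52e-06) and was lower in 11 of 12 pairs, with 22.1 to 94.3 TPM (median 47.7) in libraries with the siRNA and 29.8 to 176 TPM (median 83.2) in those without. CXCL2, a neutrophil chemokine, fell by 0.46 ± 0.12, and its call was lost with a term for library number (-0.18, adjusted p = 0.562). In the model without a filter CXCL1, a related chemokine with a mean of 2.39 TPM, fell by 0.71 ± 0.14 (adjusted p = 7.50e-04), and CSF2, a growth factor of myeloid cells with a mean of 10.5 TPM over the 24 libraries, rose by 0.58 ± 0.16 (adjusted p = 0.0130). Both were chosen after their values were seen.

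Interferon response genes were lower at 4 of 11 and higher at 0, beside 9.38% and 9.04% of all genes, with a median of -0.09. They were STAT2 (-0.37 ± 0.08) and IRF7 (-0.36 ± 0.08), both transcription factors of the response, USP18 (-0.28 ± 0.07), which removes ISG15 from proteins, and ISG15 itself (-0.23 ± 0.07). With a term for library number only IRF7 remained called (-0.49, adjusted p = 0.0185), while STAT2 was at -0.42 (adjusted p = 0.0512). The median in the control background was 0.00, and it lay between -0.26 and -0.19 in the other 3. Targets of p53 were lower at 5 of 14 and higher at 0, beside the same shares of all genes. The lower ones were led by DDB2, a DNA damage sensor (-0.41 ± 0.08, adjusted p = 3.58e-04). The p53 count was 1 lower and 1 higher with library number and was 3 lower or fewer without any one of 18 of the 24 libraries, down to 1. MDM2, a p53 target with a mean of 6.32 TPM, rose by 0.60 ± 0.09 in the model without a filter and was chosen after its values were seen.

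In the list of YAP and TGF-beta targets, 1 was higher and 3 lower of 11, beside 9.04% and 9.38% of all genes tested. CYR61 and CTGF, secreted matrix proteins, fell by 0.53 ± 0.09 and 0.39 ± 0.10, and AMOTL2, a YAP-binding scaffold, by 0.40 ± 0.07. TGFBI rose by 0.27 ± 0.07. CTGF and TGFBI were not called with a term for library number (adjusted p = 0.0710 and 0.248). The proteasome list had 4 higher and 1 lower of 31, beside the same shares of all genes. PSMD13, a subunit of the proteasome lid, fell by 0.57 ± 0.05 (adjusted p = 5.65e-09) and was one of the genes whose libraries did not overlap, at 67.3 to 106 TPM with the siRNA and 114 to 153 TPM without. PSMD12 and PSMC5 rose by 0.26 ± 0.07 and 0.19 ± 0.05, and the count of higher members was 0 with library number and 2 without siVPS37B replicate 3 or siVPS37BC replicate 1 or 2.

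Counts for the other lists stand beside 9.04% higher and 9.38% lower among all genes tested. Cytosolic ribosomal proteins were higher at 8 and lower at 1 of 68, of which 1 and 0 held with library number. Oxidative phosphorylation had 2 higher and 4 lower of 63, the ATF4 and unfolded protein response 0 and 1 of 29, NRF2 targets 0 and 1 of 16, and hypoxia and glycolysis 0 and 0 of 19. MAPK and AP-1 genes were 2 higher and 1 lower of 21, apoptosis regulators 2 and 1 of 13, intestinal differentiation genes 2 and 1 of 10, Wnt targets 0 and 1 of 9, EGFR and its ligands 2 and 1 of 9, and housekeeping genes 2 and 2 of 18. With a term for library number the higher and lower counts were 0 and 2 for oxidative phosphorylation, 0 and 0 for ATF4 and the unfolded protein response, 1 and 1 for NRF2 targets, and 1 and 0 for hypoxia and glycolysis. They were 0 and 1 for MAPK and AP-1 genes, 1 and 0 for apoptosis regulators, 0 and 1 for intestinal differentiation, 0 and 0 for Wnt targets, 1 and 0 for EGFR and its ligands, and 2 and 0 for housekeeping genes. Counts this small also turned on single libraries. Leaving out 1 library gave 1 to 2 higher and 0 to 4 lower MAPK and AP-1 genes, 1 to 3 higher apoptosis regulators, and 1 to 2 higher and 0 to 1 lower genes of the EGFR list. It moved the higher count by over 1.5 times for 17, 11 and 15 of the 24 libraries in these 3 lists. Of the epithelial markers 11 were tested, with 3 higher and 0 lower, and 0 higher and 1 lower with library number. No marker of fibroblasts, leukocytes or endothelium reached the filter, and of 28 such markers 5 were in the table. The summed level was 1.37 to 4.27 TPM with the siRNA and 3.01 to 5.73 TPM without it for the fibroblast marker. It was 9.08 to 13.5 TPM with and 8.40 to 12.2 TPM without for leukocytes, and 1.85 to 6.09 TPM with and 2.41 to 6.60 TPM without for endothelium.

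**Figure D4:**
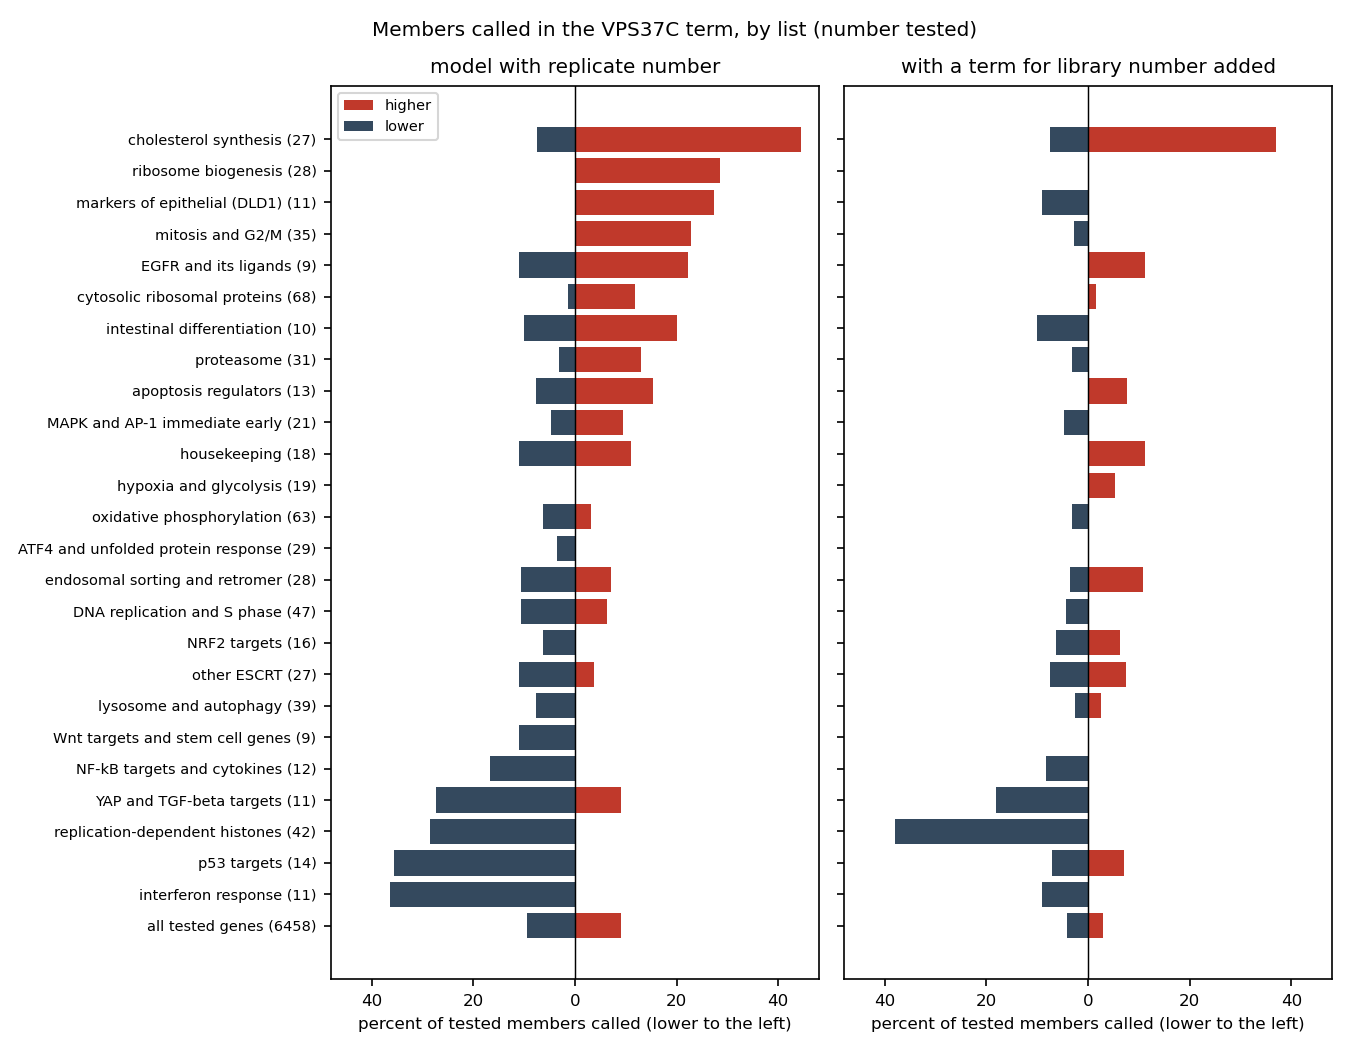
Percent of the tested members of each list called higher (to the right) and lower (to the left) in the VPS37C term, with all tested genes in the lowest bar; the left panel is the model with the replicate number, the right panel adds a term for library number. Cholesterol synthesis (12 higher of 27, then 10) and histones (12 lower of 42, then 16) stand out in both panels, and the bars for higher mitosis and ribosome biogenesis genes are gone on the right.

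The response to the VPS37C siRNA was then set against those to the siRNAs for its paralogs, whose terms come from the same 24 libraries. The VPS37A term called 2497 genes (38.7%), with 27.2% higher and 11.5% lower, and the VPS37B term 1670 (25.9%), with 13.4% higher and 12.5% lower. The VPS37C term differed from the VPS37A term in 1423 genes (22.0%), 401 higher (6.21%) and 1022 lower (15.8%), and from the VPS37B term in 1733 genes (26.8%), 853 higher (13.2%) and 880 lower (13.6%). With quantile normalization the first of these splits became 682 higher and 733 lower. Of the 1190 genes called in the VPS37C term, 350 went beyond both paralog terms in the same direction, each difference being called, and 107 of these were higher and 243 lower. Among the 36 genes called in all 4 backgrounds, 35 did so, though being called there already favours genes with large VPS37C terms.

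In 18 of the 24 largest rises and falls the VPS37C term went beyond both paralog terms, beside 350 of all 6458 genes tested. The 24 genes were picked for large VPS37C terms, which favours this outcome. RRM2 fell by 1.19 with the VPS37C siRNA, by 0.35 with the VPS37A siRNA (adjusted p = 3.56e-05) and by 0.03 with the VPS37B siRNA (adjusted p = 0.754). HMGA2 rose by 1.05 and 0.35 with the siRNAs for VPS37C and VPS37A and fell by 0.45 with that for VPS37B. AAGAB had terms of -0.94, 0.10 and 0.00 for VPS37C, VPS37A and VPS37B. IL1RN, IL33, RPL34, WDR1, SLC16A3 and KRTAP2-3 were the exceptions. For IL1RN the VPS37C and VPS37A terms were 0.75 and 0.81, and for KRTAP2-3 they were 0.77 and 1.48.

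Genes named for the difference alone include LCN2 and ESCO2. LCN2 differed by -0.70 for VPS37C and by 1.14 for VPS37A (adjusted p = 2.54e-10). ESCO2, a cohesin acetyltransferase of S phase, had a VPS37C term of 0.09 ± 0.07 (adjusted p = 0.445) and fell by 0.96 with the VPS37A siRNA. PIM2, a survival kinase, rose by 0.43 ± 0.07 with the VPS37C siRNA and fell by 0.64 with the VPS37A siRNA. The VPS37C call of PIM2 was lost with a term for library number (0.39, adjusted p = 0.0512). The NF-kB list, 0 higher and 2 lower of 12 for VPS37C, was 11 higher and 1 lower for VPS37A and 6 and 0 for VPS37B. ATF4 and unfolded protein response genes were 0 higher and 1 lower of 29 for VPS37C, 24 and 0 for VPS37A and 13 and 4 for VPS37B. Lysosome and autophagy genes were 0 and 3 of 39 for VPS37C, 27 and 0 for VPS37A and 13 and 3 for VPS37B. Cholesterol synthesis genes were 12 and 2 of 27 for VPS37C, 17 and 3 for VPS37A and 4 and 1 for VPS37B. Histones were 0 and 12 of 42 for VPS37C, 1 and 40 for VPS37A and 0 and 18 for VPS37B. Among all genes tested the VPS37C, VPS37A and VPS37B terms called 9.04%, 27.2% and 13.4% higher and 9.38%, 11.5% and 12.5% lower. These terms rest on overlapping libraries, so the counts are set side by side with no test between lists.

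**Figure D5:**
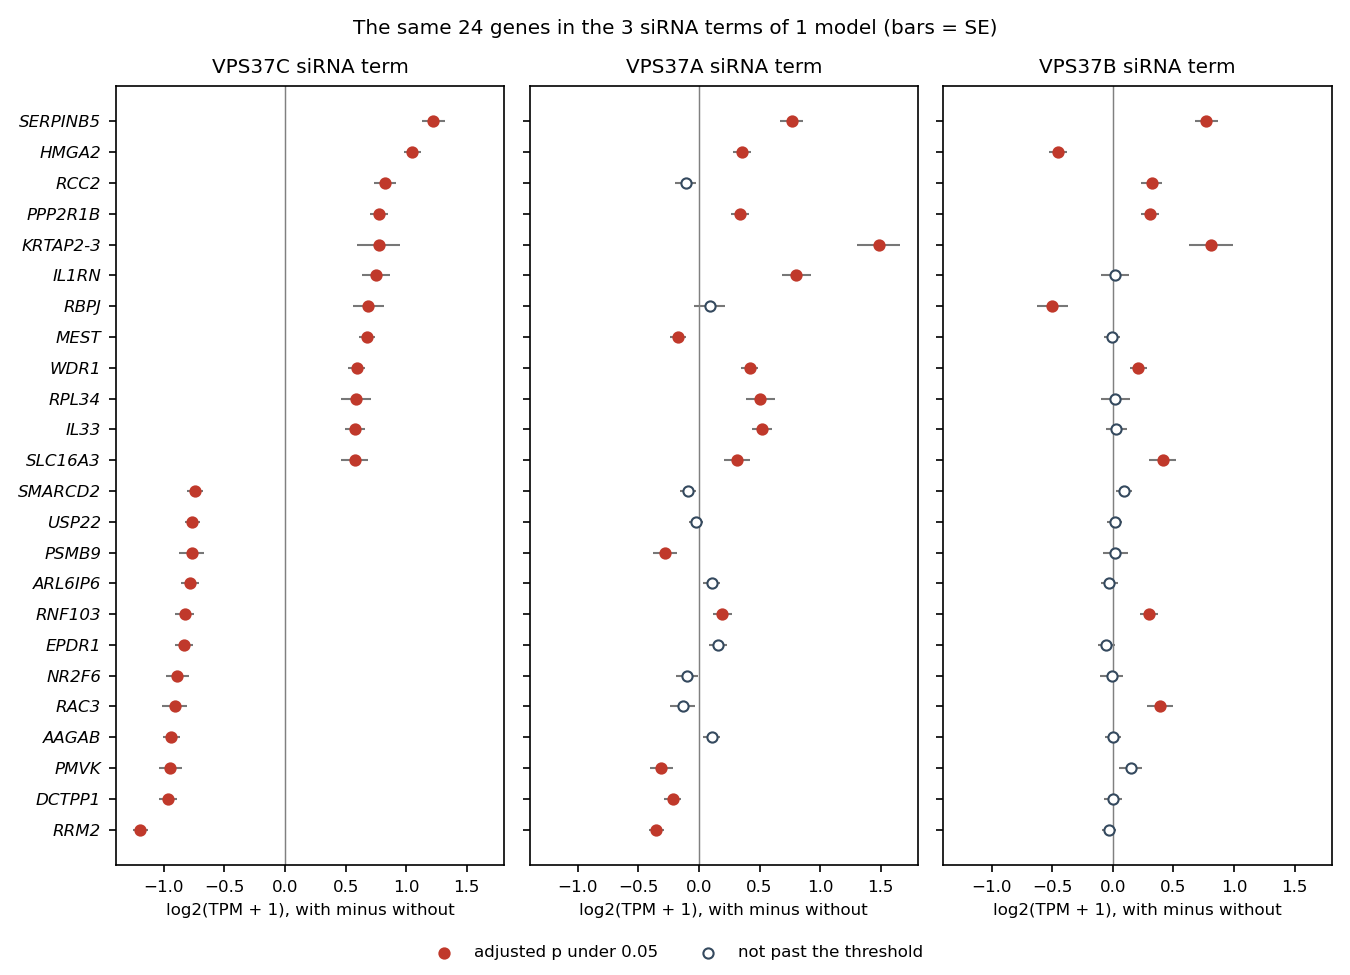
The VPS37C, VPS37A and VPS37B terms, in log2(TPM + 1) with minus without the siRNA and with SE, for the 12 largest rises and falls of the VPS37C term; filled points passed an adjusted p of 0.05. AAGAB and USP22 lie near 0 for VPS37A and VPS37B, whereas IL1RN, IL33 and KRTAP2-3 rose about as much or more with VPS37A.

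Whether the effect of the VPS37C siRNA depended on the other siRNAs was tested in a model of the 8 group means and the replicate number. No gene was called for the interaction of VPS37C with VPS37A (0 by limma, 839 at an unadjusted p under 0.05, smallest adjusted p = 0.132). Likewise none was called for VPS37C with VPS37B (0 by limma, 361 unadjusted, smallest adjusted p = 0.0604). These counts rested in part on 1 library, since 8 and 16 genes were called without siVPS37A replicate 3. The F test that the 4 differences are equal called 5 genes (0.0774%), and 64 without that library.

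HSPB11, a part of the intraflagellar transport machinery, was the first of these 5. It stood at 527, 531 and 638 TPM in siVPS37BC against 209, 228 and 282 TPM in siVPS37B, a difference of 1.24 ± 0.11. In the other backgrounds its difference was 0.15, 0.31 and 0.38, and siVPS37B was lower than every other group. PTPMT1, a phosphatase of mitochondrial cardiolipin synthesis, was at 51.1, 55.3 and 45.2 TPM in siVPS37ABC, against 20.1, 21.6 and 19.1 TPM in siVPS37AB, a difference of 1.27 ± 0.13. Elsewhere PTPMT1 differed by 0.17 to 0.26.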

How the data were processed

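RNA of DLD1 cells was read with the Ion AmpliSeq panel in 27 libraries, of which 24 were used. The deposited table, as the authors made it, holds transcripts per 1000000 (TPM) for 10470 genes. It is called normalized counts, but each of its columns sums to 1000000, so its values were taken as TPM, no count model was used and the depth of the libraries is unknown. HTSeq 0.6.0, DESeq2 1.18.1 and the build hg19 are named in the submitters' processing notes, with no statement of their role. Identical columns numbered 0, and columns of per-sample values not used numbered 0.

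Groups came from the labels. limma 3.58.1 (R 4.3.3, intensity trend, Benjamini-Hochberg adjustment, threshold 0.05) was fitted to log2(TPM + 1) of the 6458 genes averaging at least 10 TPM, with terms for the 3 siRNAs and the replicate number (18 residual degrees of freedom). Single backgrounds, interactions and the F test used 8 group means and the replicate number (14 residual degrees of freedom). The replicate number is kept in the model because the labels give it as the batch; deviations from group means correlated at 0.38 on average over 84 same-numbered pairs of libraries, of which 7 were under 0.1. P values measure the spread between these libraries, which may be technical. The procedure was tested on simulated data.

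Named genes were the targeted paralogs and tested ESCRT-I genes, the 12 largest rises and falls of called genes with a mean of 20 TPM or more and 1 sign in all backgrounds, up to 4 members of each list and up to 4 genes of each further contrast by p. Members and lists were chosen with earlier results of these data known. Some list members and sequence windows are not reported here. Sequence words were counted in 3′ UTRs of GENCODE 29 (GRCh38) with Python 3.11.15. Alternatives were a pseudocount of 8, other filters, quantile normalization, no replicate number, library number as a term, and leaving out each library or background.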

Additional observations from a re-analysis of the deposited data

Results flagged for a closer look

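The effect of the VPS37C siRNA differed between the 4 backgrounds for 5 genes, by the limma F test that the 4 differences are equal. For HSPB11 (adjusted p = 0.0116) siVPS37BC minus siVPS37B was 1.24 ± 0.11, and the other differences were 0.15 to 0.38. For PTPMT1 (adjusted p = 0.0148) siVPS37ABC minus siVPS37AB was 1.27 ± 0.13, and the others were 0.17 to 0.26. JAG1, a Notch ligand, had an adjusted p of 0.0175. Its level was 68.3, 73.7 and 68.1 TPM in siVPS37ABC, against 44.2, 47.6 and 40.8 TPM in siVPS37AB, a difference of 0.65 ± 0.10, and the other backgrounds lay between -0.24 and 0.02. RDH10, a retinol dehydrogenase (adjusted p = 0.0361), was at 23.3, 23.9 and 26.1 TPM in siVPS37BC and at 15.3, 16.1 and 18.5 TPM in siVPS37B, a difference of 0.53 ± 0.10, with -0.25 to -0.09 elsewhere. KRTAP3-1 (adjusted p = 0.0340), of low level and chosen after its values were seen, differed by -0.96 ± 0.23 in the VPS37B background and by 1.11 ± 0.23 in the background of both other paralogs. How many genes pass this test depended on single libraries, as given below.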

How the results depend on the processing

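The VPS37C term called 1190 genes, 671 without the replicate block, 1786 with no filter, 429 of 2599 at a mean of at least 50 TPM, 462 with library number and 659 without siVPS37BC and siVPS37B; leaving out 1 library gave 977 to 1285. Without the block, the differences from the VPS37A and VPS37B terms called 940 and 1114 genes, the single backgrounds (control, VPS37A, VPS37B, both) 30, 35, 206 and 72, and the F test 0 (299 at an unadjusted p under 0.05). At a mean of at least 50 TPM these were 541, 728, 57, 46, 313, 79 and 1, with fewer genes tested. With no filter the difference from the VPS37B term called 2606. With a pseudocount of 8 the F test called 11, and with quantile normalization 11. Leaving out 1 library gave 1167 to 1709 and 1398 to 2050 for the differences from the VPS37A and VPS37B terms. It gave 68 to 113, 62 to 228, 318 to 755 and 115 to 163 for the single backgrounds, in the same order. The interactions with VPS37A and VPS37B then called 0 to 8 and 0 to 16 and the F test 1 to 64. The highest each time came without siVPS37A replicate 3. The lowest F test count came without any one of siVPS37AB replicate 2, siVPS37ABC replicates 1 and 2 and siVPS37B replicate 1. Of the single backgrounds, the lowest counts came without siVPS37C replicate 2, siVPS37AC replicate 2, siVPS37BC replicate 2 and siVPS37AB replicate 2. The causes were not tested. Quantile normalization turned the split in siVPS37BC against siVPS37B to 384 higher and 389 lower, and in siVPS37ABC against siVPS37AB to 123 higher and 105 lower. Of 133 named genes called, 72 were called under every setting, 60 lost the call with library number and 0 changed sign.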
